A study of Mus musculus with 89 samples.

Results

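Genes of the heat shock and protein-folding system were followed through the RNA-seq libraries of mouse embryonic stem cells in which the histone variant H2A.Z.1 was targeted for degradation. The members were the table entries with the symbols Hspa8, Hsp90ab1, Hspd1, Hspe1, Hsp90aa1, Hsph1, Hspa1b, Dnajb1, Hspb1 and Hsf1, and all 10 were found among 26276 named genes. By textbook knowledge, 4 of them are chiefly constitutive (Hspa8, Hsp90ab1, Hspd1 and Hspe1), 5 are induced by stress (Hsp90aa1, Hsph1, Hspa1b, Dnajb1 and Hspb1), and Hsf1 is the regulator. The cells were V6.5, an established mouse embryonic stem cell line, grown in LIF with inhibitors of MEK and GSK3. Both groups carried the FKBP-V tag on H2afz, the gene of H2A.Z.1. The tag binds the small molecule dTAG, which brings the tagged protein to a ubiquitin ligase and so to the proteasome. The 3 control libraries were set against 3 dTAG libraries, named here dTAG 1, dTAG 2 and dTAG 3 by replicate number, and how long the RNA-seq cells were treated is not stated in the labels. The labels do not say that the libraries came from separate cultures or clones, so the p-values below measure the spread between these libraries, which may be technical. The other 83 of the 89 samples in the series belong to other assays and are not analysed here.

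Chaperones bind unfolded or partly folded proteins and keep them from clumping while they fold. The HSP70 proteins work in cycles of ATP use with J-domain partners and nucleotide exchange factors, HSP90 acts later on client proteins such as kinases and receptors, and the mitochondrial HSP60 ring closes with an HSP10 lid. When unfolded proteins build up, the transcription factor HSF1 forms trimers, binds heat shock elements in DNA and raises transcription of stress-induced chaperone genes, some of which hold a paused RNA polymerase II before induction.

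Depth was uneven: 4 libraries (the controls and dTAG 1) held 13214351 to 16033011 counts, while dTAG 2 held 2284068 and dTAG 3 held 2121183. The same 2 shallow libraries stood apart in content. Of 1430 olfactory and vomeronasal receptor genes, which serve sensory neurons, the controls had counts in 10.8% to 17.6%, dTAG 1 in 23.1%, dTAG 2 in 71.3% and dTAG 3 in 97.1%. These genes summed to 45.9 to 57.8 CPM in the controls (counts per 1000000 counts in named genes). In dTAG 1, 2 and 3 they summed to 155, 2390 and 8111 CPM, so dTAG 1 also lay above every control here. A list of 10 stem cell genes summed to 2769 to 2901 CPM in the controls, and to 2992, 1794 and 563 CPM in dTAG 1, 2 and 3. All 10 lay below every control in dTAG 2 and dTAG 3, against 22.4% of all genes tested in each. In dTAG 1, 4 lay above and 3 below, against 34.2% and 16.9% of all genes tested. The control sums of 14 feeder fibroblast genes were 1278 to 1403 CPM, against 1321, 1152 and 808 CPM in dTAG 1, 2 and 3. In dTAG 2 and 3, 13 of these 14 genes lay above every control and Fn1 lay below, where 63.4% and 72.3% of the 18116 genes tested lay above every control. Col3a1, a defining fibroblast collagen, was the only 1 of the 14 at 0 in every control, and Fn1 and Pdgfrb had the highest control levels. Every result below that includes dTAG 2 and 3 moves with these values, and their part in the results was not tested. The mRNA of H2afz itself had control levels of 78.8, 81.9 and 95.7 CPM, against 106.6, 56.3 and 35.9 CPM in dTAG 1, 2 and 3. The degrader acts on the protein, so this does not check the labels. In bulk RNA, fewer cells of a type and less RNA per cell cannot be told apart.

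HSF1 reads pairs of inverted GAA units, so the promoter windows of the members were searched for GAANNTTC or TTCNNGAA (N is any base; each reads the same on both strands, and matches may overlap). The windows are the RefSeq promoters of build GRCm38.p6, from 250 bases before to 50 bases after each annotated start, and 6 of the 10 members have an entry. A match was found in 5 of these 6 genes (Hspd1, Hspe1, Hsph1, Hspa1b and Hspb1), against 17.0% of the promoters of all 27025 genes. Neither window of Dnajb1 had these letters. Of the stress-induced members with an entry, 3 of 4 held a match, and of the constitutive ones 2 of 2. A longer run of 3 alternating units was found in Hspd1, Hspe1 and Hsph1 (in Hsph1 after the start, not shown), against 0.662% of all genes' promoters. These are descriptions of letters, not measured binding sites. Entries for Hspa8, Hsp90ab1, Hsp90aa1 and Hsf1 were missing. The stretches around the matches before the start are shown because HSF1 is known to act through such elements, with the matched letters in capitals.
Hspd1, chr1:55088053-55088082, minus strand: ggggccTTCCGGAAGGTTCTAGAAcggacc
Hspe1, chr1:55088053-55088082, plus strand: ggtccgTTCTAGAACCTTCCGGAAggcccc
Hsph1, chr5:149636351-149636380, minus strand: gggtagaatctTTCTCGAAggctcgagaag
Hspb1, chr5:135887786-135887845, plus strand: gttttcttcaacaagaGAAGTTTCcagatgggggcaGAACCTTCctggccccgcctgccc
Hspa1b, chr17:34959319-34959358, minus strand: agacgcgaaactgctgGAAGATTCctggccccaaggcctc
Hspa1a, chr17:34972237-34972276, minus strand: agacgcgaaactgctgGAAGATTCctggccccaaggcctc
Hspd1 and Hspe1 are transcribed away from each other, and their stretches are the same 30 bases read from opposite strands. These bases lie 121 to 150 bases before one start of Hspd1, after its other annotated start, and 66 to 95 bases before the start of Hspe1. The stretch of Hsph1 lies 15 to 44 and 36 to 65 bases before its 2 starts with an entry. It is still inside the annotated span of Hsph1, which reaches 149636498. Hspa1b and its copy Hspa1a share the stretch letter for letter, 81 to 120 bases before their starts. Their full windows are identical at 296 of 300 bases, and the starts are 12918 bases apart.

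The constitutive cytosolic chaperones were steady in the controls, lower in dTAG 2 and far lower again in dTAG 3. Hspa8 (chr9:40801276-40805202) encodes HSC70, the everyday HSP70 that folds new proteins and strips clathrin from vesicles. It had control levels of 3695, 3301 and 3645 CPM, against 3699, 2319.8 and 110.4 CPM in dTAG 1, 2 and 3. dTAG 1 lay marginally above the highest control, dTAG 2 was at 0.654 of the control mean, and dTAG 3 was 32.1-fold lower (95% Poisson interval 95.6 to 127 CPM, covering counting error only). Hsp90ab1 (chr17:45567778-45573261), the constitutive HSP90 beta, had control levels of 5591, 5023 and 5017 CPM, against 5420.2, 3684 and 160.01 CPM in dTAG 1, 2 and 3. Its dTAG 1 value lay inside the control range, and the other dTAG libraries lay below every control, at 0.707 and 0.0307 of the control mean.

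The mitochondrial pair showed the same order of libraries with a smaller distance from the controls in dTAG 3. Hspd1 (chr1:55077833-55088243), the HSP60 subunit, was the steadiest member among the controls, at 336, 335 and 334 CPM in control 1, 2 and 3, and dTAG 1, 2 and 3 had 323, 202 and 75.6 CPM. All 3 dTAG libraries lay below every control, which was true of 1 of 10 members and of 3.22% of the 18116 genes tested. The gap in dTAG 1 was small, at 0.966 of the control mean. Hspe1 (chr1:55088148-55091317), the HSP10 lid of that chamber, had control levels of 353, 375 and 359 CPM, against 392.03, 209 and 33.1 CPM in dTAG 1, 2 and 3. Its dTAG 1 value was above every control, the others below. Hspe1 made up 51.3%, 52.9% and 51.8% of the pair's control counts. In dTAG 1 its share was 54.8% (95% Wilson interval 53.8% to 55.8%), in dTAG 2 50.9% (47.6% to 54.2%) and in dTAG 3 30.5% (24.5% to 37.2%). The Hspe1 share in dTAG 3 rested on 60 counts of Hspe1 and 137 of Hspd1. A second annotated start of Hspd1 overlaps Hspe1 by 96 bases on the opposite strand, so reads there could not be told apart if the strand was not used.

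Among the stress-induced members, Hsp90aa1 and Hsph1 followed the constitutive genes. Hsp90aa1 (chr12:110691036-110696395), the inducible HSP90 alpha, had control levels of 7053, 6558 and 6682 CPM, against 6871, 4486 and 218 CPM in dTAG 1, 2 and 3, so dTAG 1 was inside the control range and the others were below it. Its share of the counts of both cytosolic HSP90 genes was 55.8%, 56.6% and 57.1% in the controls and 55.9%, 54.9% and 57.7% in the dTAG libraries. The share in dTAG 2 lay just below the control range and that in dTAG 3 just above it (95% Wilson interval 54.0% to 61.4%), while Hsp90aa1 and Hsp90ab1 were 31.0-fold and 32.6-fold lower in dTAG 3. Hsph1 (chr5:149616843-149636498), the HSP110 exchange factor for HSP70, had control levels of 240.3, 200.4 and 211 CPM, against 224, 152 and 34.8 CPM in dTAG 1, 2 and 3, with the same order.

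The small heat shock protein showed the same order of libraries as Hsph1, and the J-domain partner gave a further pattern. Hspb1 (chr5:135887919-135889563), HSP27, which holds unfolded proteins without using ATP, had control levels of 106, 107 and 124 CPM, against 112, 60.5 and 35.9 CPM in dTAG 1, 2 and 3. It had the lowest ratio of the 10 members in dTAG 2, at 0.538 of the control mean. Dnajb1 (chr8:83608175-83612653), HSP40, which delivers clients to HSP70, had control levels of 48.7, 41.5 and 46.6 CPM, against 46.2, 53.5 and 36.4 CPM in dTAG 1, 2 and 3. Of the 10 members its CPM stayed closest to the control mean in dTAG 2 and 3, with dTAG 2 above every control and dTAG 3 below. The Poisson intervals of those 2 libraries, 44.1 to 64.3 and 28.2 to 46.3 CPM, reach into the control range.

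Only Hspa1b among the 10 members lay above every control in all 3 dTAG libraries. Hspa1b (chr17:34956429-34959238) encodes the strongly inducible HSP70, the classic product of heat shock. It had control levels of 13.9, 17.2 and 15.8 CPM, against 21.9, 105.6 and 260.4 CPM in dTAG 1, 2 and 3. The dTAG values were 1.40, 6.74 and 16.6 times the control mean. Lying above every control in all 3 was true of 1 of 10 members and of 23.9% of all genes tested. The counts behind these values were 198, 270 and 223 in the controls and 283, 225 and 472 in the dTAG libraries. The near-identical copy Hspa1a (chr17:34969359-34972156) had control levels of 9.83, 15.3 and 12.99 CPM, against 15.96, 100.4 and 244 CPM in dTAG 1, 2 and 3, again above every control. Reads shared by the copies could have been split between them by the counting, so the 2 genes are uncertain as separate measurements. Hspa1b held 53.0% to 58.6% of their summed counts in the controls and 57.9%, 51.3% and 51.6% in the dTAG libraries. Set against Hspa8, the inducible pair made up 0.638% to 0.975% of the summed control counts of all 3 genes, and 1.01%, 8.15% and 82.0% of those in dTAG 1, 2 and 3.

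Hsf1 (chr15:76477362-76501155), the regulator, whose activity is set mainly after translation, had control levels of 22.0, 14.1 and 18.7 CPM, against 17.9, 22.5 and 50.8 CPM in dTAG 1, 2 and 3. dTAG 1 lay within the control range, dTAG 2 just above it and dTAG 3 clearly above it, at 2.78 times the control mean. It rested on few counts, 48 in dTAG 2 and 92 in dTAG 3.

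**Figure D1:**
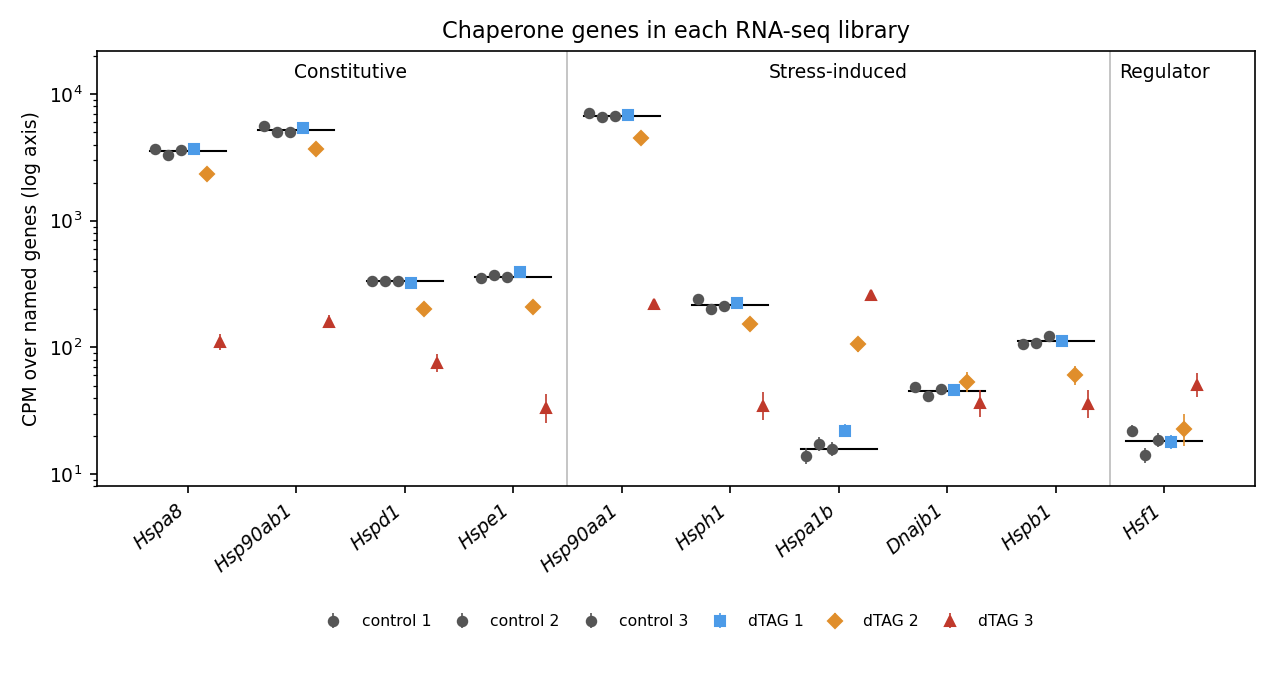
Level of each of the 10 members in CPM (log axis) in the 3 control and 3 dTAG libraries, with exact Poisson intervals of 95% for counting error and the control mean as a black line. Against their own controls, Hspa1b is higher in dTAG 3 (13.9 to 17.2 CPM, then 260.4 CPM) and Hspa8 is lower (3301 to 3695 CPM, then 110.4 CPM).

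No member passed edgeR's test over 6 libraries. With edgeR's quasi-likelihood test and Benjamini-Hochberg adjustment over all genes, 0 of 10 members had an adjusted p under 0.05, and the share called over all 18116 genes was 0%. At an unadjusted p under 0.05, 1 member (Hspa1b) and 4202 genes passed. limma-voom likewise called 0 members and 0 genes (1 member and 1801 genes unadjusted). DESeq2 called 1 member, Hspa1b, and 17.7% of all genes (17.6% higher). The log2 fold change of Hspa1b was 1.87 (SE 0.54, edgeR adjusted p = 0.0960, higher in 3 of 3 dTAG libraries), and under the alternatives its adjusted p ran from 0.00198 to 0.297, with 0.0166 by DESeq2. For the 4 constitutive members the log2 fold changes lay between -1.11 (Hspd1, SE 0.96, edgeR adjusted p = 0.465) and -1.04 (Hsp90ab1, SE 2.54, edgeR adjusted p = 0.768). These 4 values rested on single libraries: they lay between -2.57 and -2.35 without dTAG 1 and between -0.63 and -0.48 without dTAG 3, and limma-voom gave -2.83 to -1.99. Hsp90aa1 was at -1.09 (SE 2.84), Hsph1 at -1.01 (SE 0.95), Hspb1 at -1.10 (SE 0.77), Dnajb1 at -0.60 (SE 0.50) and Hsf1 at -0.17 (SE 0.32), with edgeR adjusted p-values from 0.410 to 0.781. The median log2 fold change was -1.05 over the members and 0.16 over all genes.

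The scale of these fold changes depends on the composition of dTAG 2 and 3. Scaled to library totals alone, the median of all genes moved from 0.16 to 1.11, and relative to these medians the members' median was -1.21 with TMM scaling and -1.82 with library totals. Hspa1b stood 1.71 above the median of all genes with TMM and 1.93 above it with library totals. Hsf1, at -0.17 with TMM and 0.73 with library totals, stood 0.33 and 0.38 below those medians, so the sign of its fold change rests on the scaling. Without dTAG 1, edgeR called Hspa1b (log2 fold change 1.99, adjusted p = 0.00198), Hspb1 (-2.43, adjusted p = 0.0148) and Dnajb1 (-1.26, adjusted p = 0.0495), but 59.8% of 22093 genes were called with them, 40% higher and 19.8% lower. In that fit Dnajb1 is lower by TMM scaling while its CPM is above the controls in dTAG 2.

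dTAG 1, the one dTAG library of control depth, had no member past the threshold. Set against the 3 controls alone, with the lone library assumed to vary like them, edgeR called 0 of 10 members and 0.0882% of 18143 genes (16 genes). At an unadjusted p under 0.05 it passed 0 members and 1041 genes. DESeq2 called 0 members and 0.11% of genes, and limma-voom 0 members and 0.0276% of genes. Hspa1b had the largest value, 0.40 on the log2 scale (SE 0.32, edgeR adjusted p = 0.973), and Hspa1a stood at 0.24 (SE 0.36). The other 9 members lay between -0.13 (Hspd1, SE 0.11) and 0.03 (Hspe1, SE 0.10). For Hspa8, Hsp90ab1 and Hsp90aa1 the SE values, derived from the test statistic, were 0.06, 0.05 and 0.04, the smallest among the members. Their log2 fold changes were -0.02, -0.03 and -0.06. A p that misses the threshold does not show that the values are equal.

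**Figure D2:**
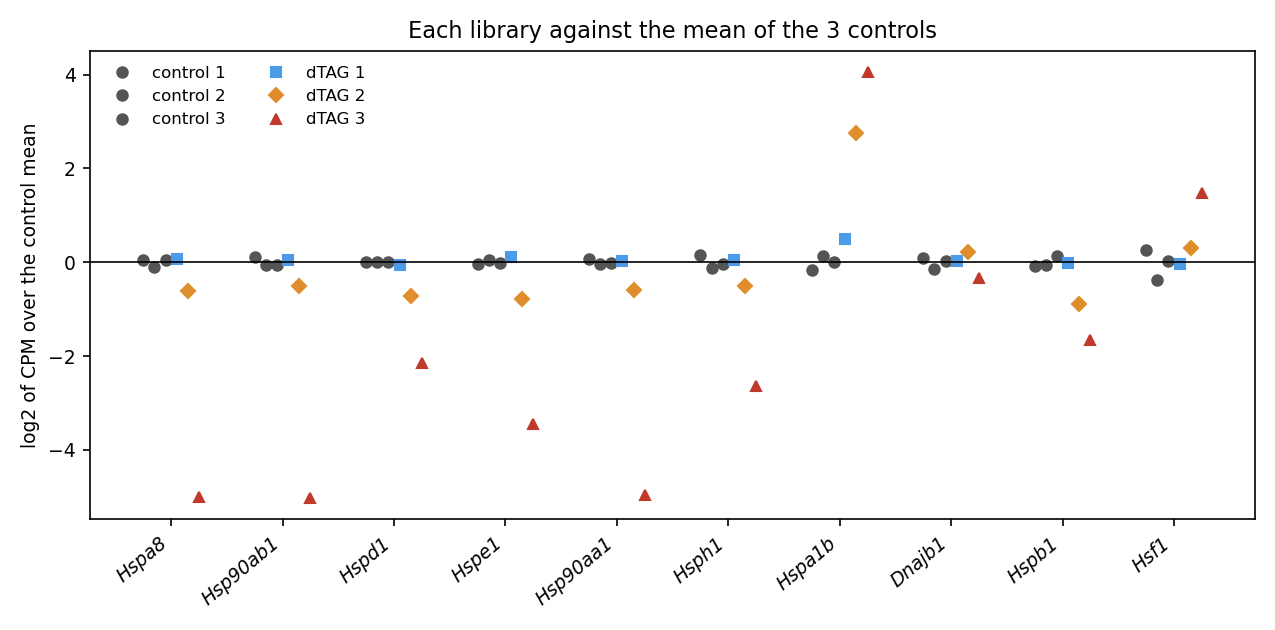
Each library's CPM over the mean of the 3 controls, as log2, for each of the 10 members, with control libraries as grey circles and dTAG 1, 2 and 3 as blue squares, orange diamonds and red triangles. Before the log2, Hspa1b is at 1.40, 6.74 and 16.6 times its control mean in dTAG 1, 2 and 3, while Hspa8 is at 0.0311 and Hsp90ab1 at 0.0307 of theirs in dTAG 3.

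Counted by library, 1 member (Hspd1) was below every control in dTAG 1 and 3 (Hspa8, Hspe1 and Hspa1b) were above, against 16.9% and 34.2% of all genes. In dTAG 2, 7 members were below and 3 (Hspa1b, Dnajb1 and Hsf1) above, against 22.4% and 63.4% of all genes. In dTAG 3, 8 were below and 2 (Hspa1b and Hsf1) above, against 22.4% and 72.3%. Of the 10 members, 7 were ordered control mean, dTAG 2, dTAG 3 from high to low, 4 of them constitutive and 3 stress-induced. That order held for 37.0% of 8876 genes with a control mean of at least 10 CPM, for 87.7% of those between 100 and 300 CPM and for 97.4% of those between 300 and 1000 CPM, and all 7 members had a control mean above 100 CPM. dTAG 2 and 3 are replicates of one condition, so this order describes libraries and not a course.

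Across genes, the ratio of dTAG 3 to the control mean was lower the higher the control CPM, so the members are set beside genes of their own control level. Among 8876 genes with a control mean of at least 10 CPM, the median ratio of dTAG 3 to the control mean was 2.20 for 4013 genes between 10 and 30 CPM, 0.858 for 3341 genes between 30 and 100 CPM, 0.278 for 1142 genes between 100 and 300 CPM and 0.0912 for 308 genes between 300 and 1000 CPM. It was 0.0379 for 57 genes between 1000 and 3000 CPM and 0.0307 for the 15 genes above, a thinly filled class that includes Hspa8, Hsp90ab1 and Hsp90aa1 themselves at 0.0311, 0.0307 and 0.0323. Hspe1 sat at its class median (0.0913), Hspd1 above it (0.226), Hsph1 below its own (0.160), Hspb1 above (0.319), and Dnajb1 (0.798) and Hsf1 (2.78) near theirs (0.858 and 2.20). Hspa1b lay furthest above its class: of the 4013 genes between 10 and 30 CPM, 93.8% had a lower ratio than Hspa1b in dTAG 1, 99.4% in dTAG 2 and 99.4% in dTAG 3. For Hsf1, in the same class, these shares were 43.3%, 44.4% and 60.3%. These classes are a description across genes, which are not independent replicates.

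**Figure D3:**
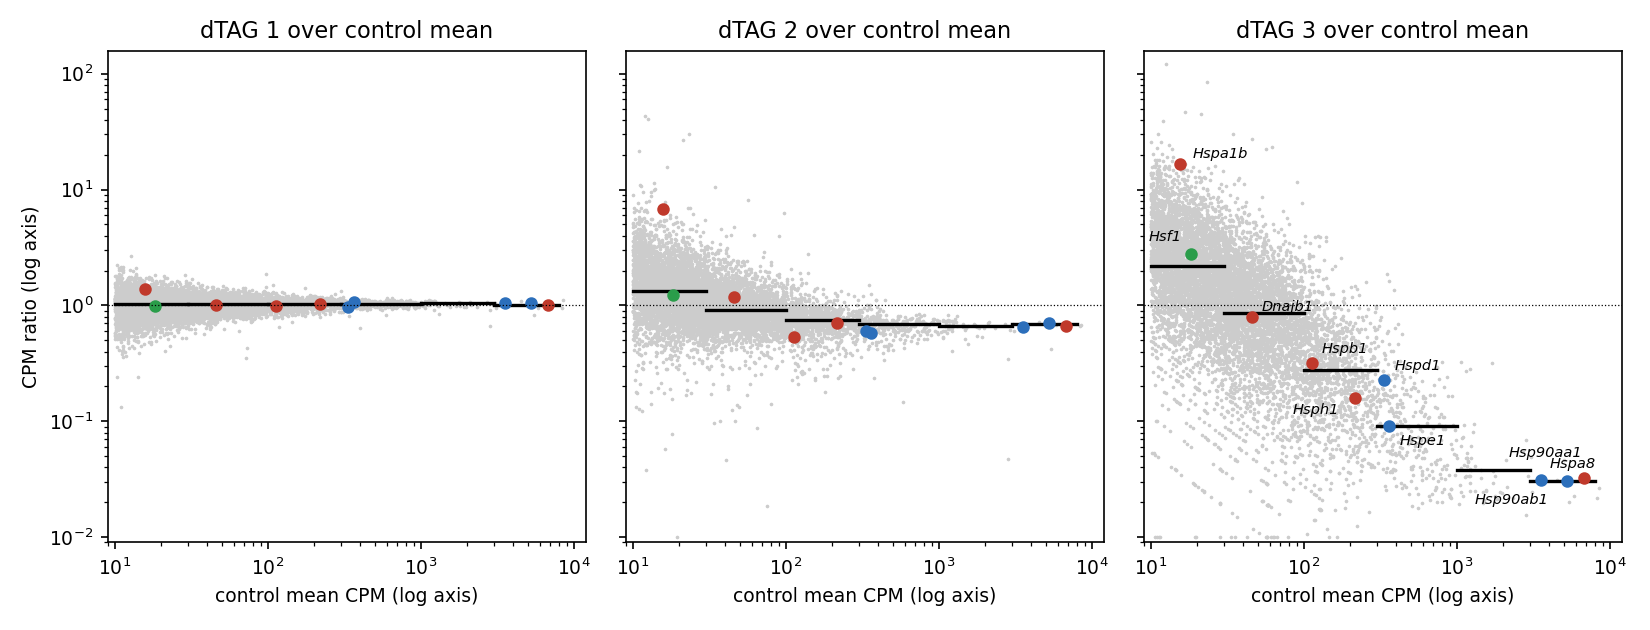
Ratio of each gene's CPM in dTAG 1, 2 and 3 to its control mean (log axis) against the control mean in CPM (log axis) for 8876 genes in grey, with constitutive members in blue, stress-induced members in red, Hsf1 in green and class medians as black bars; ratios too low for the axis are drawn at its lower edge. In dTAG 3 the medians run from 2.20 at 10 to 30 CPM down to 0.0307 in the highest class, and Hspa1b lies at 16.6.

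Constitutive and stress-induced members were compared by their shares of member counts. The 5 stress-induced genes held 42.8%, 43.4% and 43.1% of the counts of the 9 chaperones in the controls. dTAG 1 stood at 42.5% (95% Wilson interval 42.3% to 42.7%), dTAG 2 at 43.1% (42.5% to 43.7%) and dTAG 3 at 60.7% (58.4% to 63.0%). Hspa1b alone held 472 counts of that last value. Without it the share was 42.7%, 43.3% and 43.0% in the controls and 42.4%, 42.6% and 46.2% (43.5% to 48.9%) in dTAG 1, 2 and 3, so most of the difference in dTAG 3 rested on this member. Without Hsp90aa1 the share was 3.94%, 3.90% and 4.08% in the controls. dTAG 1 then stood at 3.95%, dTAG 2 at 5.47% (5.12% to 5.86%) and dTAG 3 at 49.2% (46.6% to 51.9%). Hspa1b held 225 of the 792 stress-induced counts behind this share in dTAG 2, and 472 of 666 in dTAG 3. In the controls it held 198 of 5830, 270 of 5738 and 223 of 5604. dTAG 1 was near the controls on both shares. The higher share in dTAG 3 came with a summed CPM of the 10 members of 1016, against 15973 to 17459 in the controls. Summed, the constitutive members were at 1.04, 0.679 and 0.0401 of their control mean in dTAG 1, 2 and 3, and the stress-induced ones at 1.02, 0.679 and 0.0819. Without Hspa1b the stress-induced sum was at 1.02, 0.666 and 0.0456, close to the constitutive sum. Most of that sum was Hsp90aa1, with 218 of 326 CPM in dTAG 3, so it says little about the others. By gene, the median ratio in dTAG 3 was 0.319 for the stress-induced members and 0.0612 for the constitutive ones, which ran from 0.0307 to 0.226. Hsp90aa1, Hsph1, Hspb1 and Dnajb1 stood at 0.0323, 0.160, 0.319 and 0.798. These ratios also vary with control level, as given above.

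**Figure D4:**
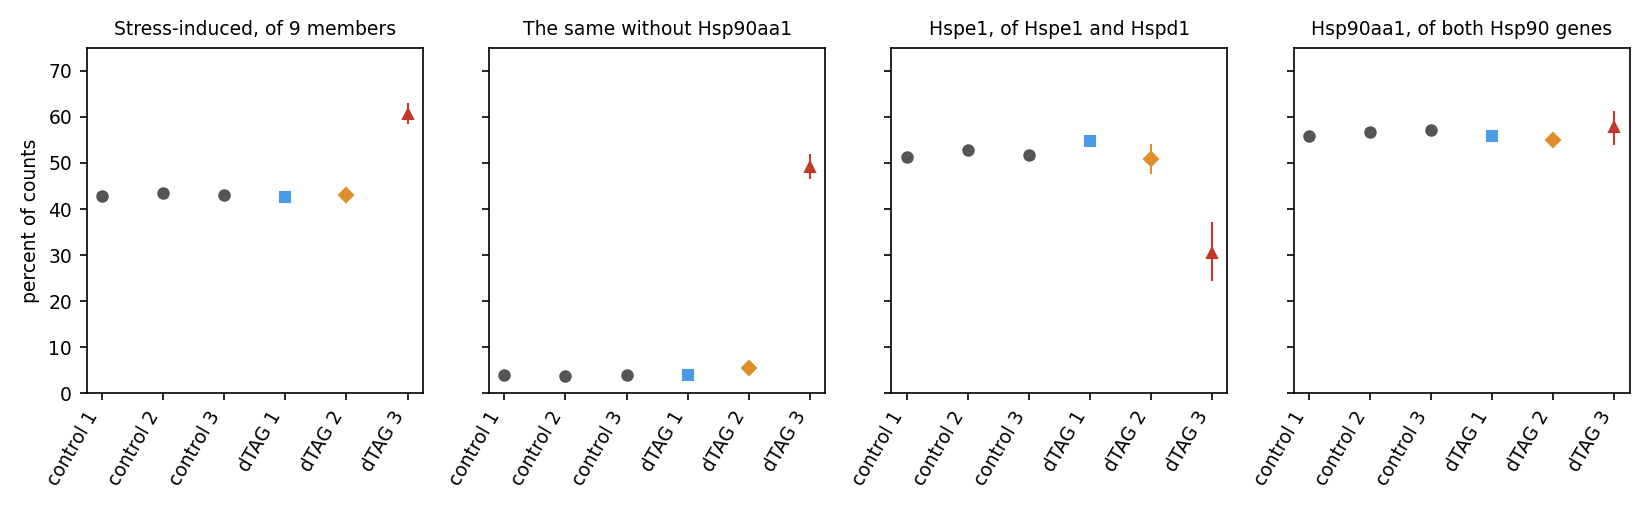
Share of counts, in percent, in each of the 6 libraries, for the stress-induced members among 9 chaperones with and without Hsp90aa1, for Hspe1 among Hspe1 and Hspd1, and for Hsp90aa1 among both HSP90 genes, with Wilson intervals of 95% for counting error. The share without Hsp90aa1 is 3.90% to 4.08% in the controls and 49.2% in dTAG 3, where Hspa1b holds 472 of its 666 stress-induced counts.

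The wider chaperone system was read from 11 lists, and in each of them edgeR called 0 genes in both comparisons. Over the union of the lists, 8 of 93 genes tested (8.60%) had an unadjusted p under 0.05 over 6 libraries, against 23.2% of all genes, and limma-voom called 0 of them. For dTAG 1 the unadjusted count was 2 of 94 (2.13%), against 5.74% of all genes. DESeq2 called 7 of the 93 over 6 libraries (7.53%, against 17.7% of all genes): Hspa1a, Hspa1b, Hspa1l, Dnaja4, Hsf4 and Hsf5 higher and Tomm34 lower. Hspa1l, an HSP70 of the testis, was near 0 at 1.02 ± 0.453 CPM over the controls (SD, n = 3), against 1.94, 29.1 and 76.1 CPM in dTAG 1, 2 and 3. Hsf4, Hsf5 and Dnaja4 were also low in the controls, with means of 0.599, 0.968 and 3.19 CPM. Their control counts were 18, 5 and 3 for Hsf4, 15, 9 and 18 for Hsf5, and 13, 52 and 75 for Dnaja4. Tomm34, a co-chaperone, stood at 29.0 ± 1.59 CPM over the controls (SD, n = 3), against 18.5, 23.5 and 32.0 CPM, so its CPM was below every control in dTAG 1 and 2 and above them in dTAG 3. These 7 genes were named after their values were seen.

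The cytosolic chaperonin TRiC, the ring that folds actin and tubulin, had summed levels at 1.05, 0.680 and 0.0993 of the control mean in dTAG 1, 2 and 3. In each of dTAG 2 and 3, 8 of its 9 genes were below every control, against 22.4% of all genes. All but Cct6b had control means between 184 (Cct4) and 501 CPM (Tcp1). Of all genes at 100 to 300 CPM, 90.7% and 93.4% lay below their control mean in dTAG 2 and 3. At 300 to 1000 CPM these shares were 97.4% and 99.0%, so low values there are not particular to TRiC. Its subunit Tcp1 stood at 500.9 ± 35.7 CPM over the controls (SD, n = 3), against 530.5, 374 and 41.4 CPM in dTAG 1, 2 and 3. Prefoldin, which hands chains to TRiC, was at 0.990, 0.606 and 0.285, with all 6 genes below every control in dTAG 2 and 3 (22.4% of all genes). The mitochondrial list, which includes the HSP70 gene Hspa9 (580.2 ± 41.0 CPM in 3 controls; 587, 405 and 37.0 CPM in the dTAG libraries), was at 1.02, 0.683 and 0.285. In each of dTAG 2 and 3, 6 of its 8 genes were below every control, against 22.4% of all genes. The other 2 were above every control, against 63.4% and 72.3% of all genes.

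Co-chaperones also had sums below their control means in dTAG 2 and 3. The HSP90 co-chaperones, among them Fkbp4 and Stip1, stood at 1.03, 0.734 and 0.363 of the control mean, and those of HSP70, among them Hspa4 and St13, at 1.04, 0.820 and 0.527. Of the 15 HSP90 co-chaperones 12 were below every control in each of dTAG 2 and 3, against 22.4% of all genes in each. But of the 13 for HSP70 only 6 were below and 7 above, so their low sum does not describe most of the list. Of all genes, 63.4% and 72.3% were above every control in dTAG 2 and 3. Fkbp4, an immunophilin, had 437 ± 15.97 CPM over the controls (SD, n = 3), against 465, 275 and 41.4 CPM in dTAG 1, 2 and 3. The J-domain proteins of classes A and B, at 1.03, 0.921 and 0.925, and the small heat shock proteins, at 0.963, 0.892 and 1.80, had members on both sides: in dTAG 3, 9 of 17 and 9 of 10 were above every control, against 72.3% of all genes. Hspb8, a small heat shock protein that works with BAG3, stood at 23.7 ± 1.70 CPM over the controls (SD, n = 3), against 20.3, 29.6 and 62.9 CPM in dTAG 1, 2 and 3. The heat shock factors with the HSF1-binding protein gene Hsbp1 summed to 1.01, 1.28 and 1.55 of the control mean, with 5 of 7 genes above every control in dTAG 3, near the 72.3% of all genes, and 2 below. Hsf2, a factor that can form trimers with HSF1, stood at 33.2 ± 5.36 CPM over the controls (SD, n = 3), against 27.0, 27.7 and 16.001 CPM in dTAG 1, 2 and 3, each below every control. A list of 23 known HSF1 targets, most of which are members or on other lists, was at 1.03, 0.688 and 0.112 and had 14 and 15 genes below every control and 8 and 7 above in dTAG 2 and 3, where 22.4% of all genes were below in each and 63.4% and 72.3% above.

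**Figure D5:**
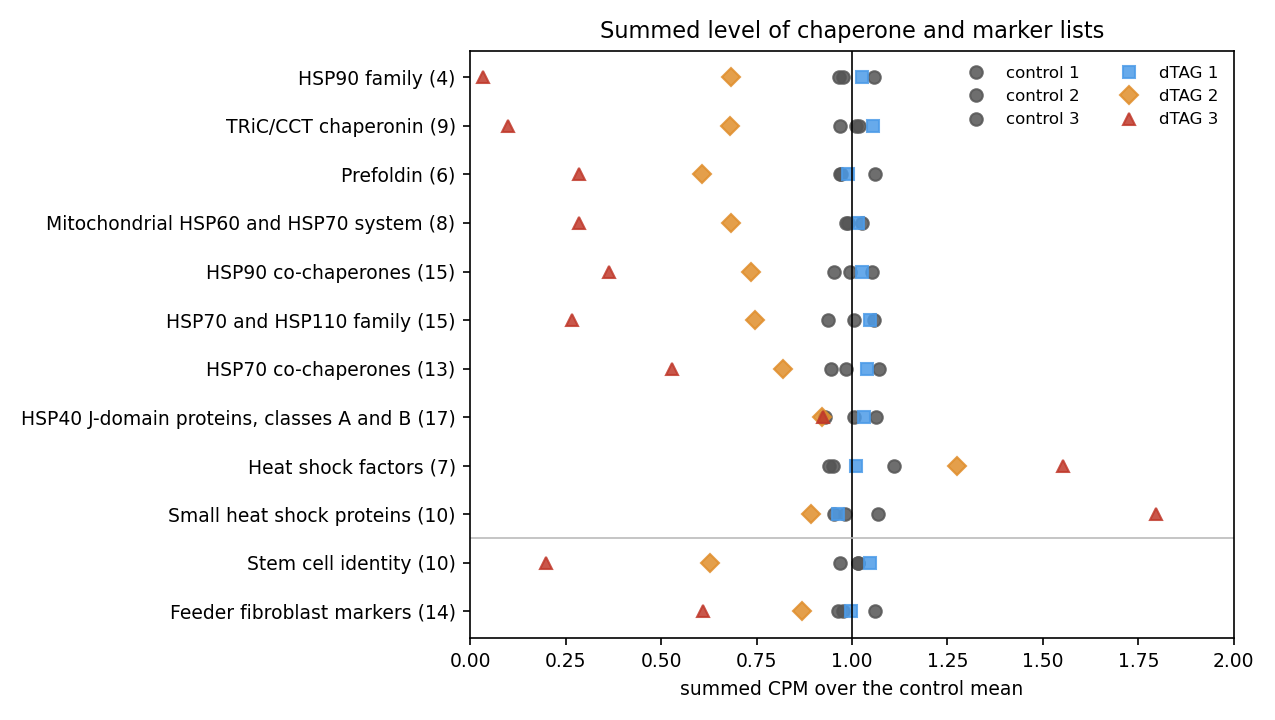
Summed CPM of 10 chaperone lists and of the stem cell and feeder lists in each of the 6 libraries, as a ratio to the control mean (linear axis), with the number of genes in brackets. In dTAG 1 the chaperone sums lie between 0.963 and 1.05, and in dTAG 3 they run from 0.0336 for the HSP90 family to 1.80 for the small heat shock proteins.

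The genes whose profile over the 6 libraries was nearest to that of Hspa8, by distance of log2(CPM + 1) with the control mean taken off and among 12214 genes, were Hsp90aa1 (distance 0.10), Rnu1a1 (0.11) and Eif2s2 (0.14). The genes compared had a mean of at least 10 CPM over the 6 libraries, dTAG 2 and 3 included. Nearest to Hspa1b were Zxdb (0.19), Lrp4 (0.23) and Col13a1 (0.25), and its copy Hspa1a ranked 19 (0.40). Zxdb, Lrp4 and Col13a1 had control means of 7.98, 7.27 and 5.08 CPM, so they passed that filter only through the dTAG libraries. Their likeness to Hspa1b is in part set by the filter. Zxdb, a zinc finger gene, had control levels of 7.09, 8.11 and 8.73 CPM, against 11.2, 52.5 and 144 CPM in dTAG 1, 2 and 3, the same order as Hspa1b.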

How the data were processed

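The authors deposited 1 table of whole-number counts per gene, not normalized; per the submitters' processing notes, STAR 2.7.2b, featureCounts, edgeR and limma were used with build mm10, with roles, settings, annotation and strand use not given in the sources used here. The 903 entries without a symbol held 2.20% to 2.37% of the counts in 4 libraries, and 6.67% and 14.6% in dTAG 2 and dTAG 3, and stayed out of library sizes and tests. CPM are per 1000000 counts in named genes; a count of 0 allows 3 counts, or 0.192 to 1.66 CPM. Lengths were not used: shares of counts within gene pairs and classes by control CPM are compared across libraries and do not rank transcripts.

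Fold changes come from edgeR 4.0.16 in R 4.3.3 (glmQLFit, glmQLFTest, two-sided, TMM, filterByExpr with minimum count 10 and total 15, Benjamini-Hochberg). Each edgeR SE is the absolute log2 fold change over the square root of the test's F statistic, not an SE fitted by the model. Over 6 libraries it was 2.84 for Hsp90aa1 and 0.54 for Hspa1b, where DESeq2 gave 1.10 and 0.61. The code was also run on simulated counts with a smaller spread between libraries and no shift in composition like that of dTAG 2 and 3. That run does not show how the test behaves on these libraries. Alternatives used RLE, library totals, other filters, DESeq2 1.42.0, limma-voom (limma 3.58.1), a replicate block and leaving out each library. Hspa1a and Hspa1b windows were aligned with Biopython 1.88. Members, lists and tests were chosen with earlier results of these data known. Named genes are the members, Hspa1a, H2afz, the 2 with most counts per list where none was called (examples given), and the 3 nearest profiles; those DESeq2 called were named after their values were seen.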

Additional observations from a re-analysis of the deposited data

How the results depend on the processing

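Over 6 libraries, the 10 members and Hspa1a had 143 fold changes under the alternatives: 136 kept direction and side of the threshold, 6 passed it and 1 changed sign (Hsf1 with library totals, 0.73). Genes called were 0 with edgeR and TMM, 1398 with no filter on low counts, 3206 with DESeq2 and 13 with the replicate block, and 0 to 13222 when 1 library was left out (13222 without dTAG replicate 1). Of the 10 members, 1 was called with DESeq2 (17.7% of all genes) and 0 to 3 when 1 library was left out. The 3 were called without dTAG replicate 1, where 59.8% of all genes were called. Genes of the wider lists called were 2 of 101 with no filter and 7 of 93 with DESeq2, against 5.45% and 17.7% of all genes. They were 0 to 49 when 1 library was left out. The 49 were of 99 genes tested without dTAG replicate 1, against the same 59.8% of all genes. Deviations of same-numbered libraries from their group means had correlations of 0.0465, -0.0114 and 0.0202. In the dTAG group these deviations carry the gap between dTAG 1 and the shallow dTAG 2 and 3. The correlations therefore cannot decide whether the numbers pair the libraries. The replicate block called 0 members.

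For dTAG replicate 1 against the controls, the genes called were 16, against 41 with no filter, 5 with limma-voom and 20 to 60 when 1 control was left out (60 without control replicate 1, 28 without control replicate 2). Of 88 fold changes, 79 kept their direction. With library totals the sign changed for Hspa8 (0.061), Hsp90ab1 (0.057), Hsp90aa1 (0.023), Hsph1 (0.044) and Dnajb1 (0.018). When 1 control was left out it changed within the range for Hspa8 (-0.049 to 0.0082), Hspe1 (-0.020 to 0.077), Hsph1 (-0.070 to 0.0088) and Hsf1 (-0.24 to 0.016). The stress-induced share without Hsp90aa1 was 3.94%, 3.90% and 4.08% in the controls and 3.95%, 5.47% and 49.2% in the dTAG libraries. Hspa1b held 472 of the 666 stress-induced counts of that last value. With Hsp90aa1 kept, the share in dTAG replicate 3 was 60.7%, 68.6% with Hspa1a added and 46.2% without Hspa1b, an alternative chosen after seeing the data. The longer promoter element was found in 3 members. The cause of these changes was not tested. The 2 shallow libraries, dTAG 2 and 3, limit the counts of the low members.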
